A study of Mus musculus with 6 samples.

Results

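Mitosis and G2/M genes were examined in innate lymphoid cells of the mouse small intestine from mice with loxP-flanked Tnfsf11, with or without a Cre that deletes it. Tnfsf11 is the gene for the cytokine RANKL. The genes were chosen by their role in cell division: 60 were listed, and 59 of them had a probe set with a single symbol in the platform annotation, out of 19938 genes measured. Ccnb1, the gene for cyclin B1, is not analysed here. A gene with several probe sets was represented by the one with the highest mean.

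The cells, type 3 innate lymphoid cells (ILC3s) positive for the chemokine receptor CCR6, were sorted from lamina propria of adult C57BL/6 mice and put on 1 Affymetrix array per sample. The control group held 3 arrays from Tnfsf11fl/fl mice, in which loxP sites flank part of both Tnfsf11 alleles. The RANKL-deficient group held 3 arrays from mice that carry the same alleles and a Cre transgene. The deletion need not be limited to the sorted cells. The control labels name no Cre, and an effect of Cre cannot be told apart from that of the deletion. Whether each array stands for a single mouse or a pool is not given in the sources used here, so p-values measure only the spread between these arrays, which may be technical.

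A dividing cell copies its DNA in S phase and then passes through G2 into mitosis (M). Entry into mitosis is driven by the kinase CDK1 with cyclins A and B, and exit by the anaphase-promoting complex (APC/C), a ubiquitin ligase that marks cyclin B and securin for destruction. Transcripts of this programme are low in resting cells and peak in G2 and M, under the control of the MuvB complex with B-MYB and FOXM1, and they are widely used as marks of proliferation. Mature ILC3s of the adult gut are largely long-lived tissue-resident cells that divide slowly.

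The 250 bases before and 50 bases after the start site were read from RefSeq promoter entries (GRCm38.p6), which matched 47 of the 59 measured genes with 50 promoters. Both classic features of this gene family were searched on both strands, together with a site type of S-phase genes. The first was the cell cycle genes homology region (CHR), spelled TTTGAA or TTCGAA, the element to which MuvB binds. The second was the CCAAT box bound by NF-Y, spelled CCAAT. The third was an E2F site, spelled TTCGCGC or TTGGCGC, whose reverse strand can share letters with a CCAAT box. A CHR match was present in 39 of the 50 promoters (78%), against 19.2% of all 32851 promoters in the table and 17.6% of those of protein-coding genes. A CCAAT match was present in 37 of 50 (74%), against 37.4% of all promoters, and at least 2 such matches in 24 of 50 (48%), against 11.7%. Matches to both CHR and CCAAT occurred together in 34 of 50 (68%), against 7.52% of all promoters. An E2F match was present in 8 of 50 (16%), against 3.89%. These shares describe letters in a window and not binding.

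The promoters of Top2a, Ect2, Nek2 and Birc5 are shown because these genes, of those with a promoter entry, had the smallest unadjusted p in the comparison described next. Capitals mark the matches to the 3 motifs, and each run reads 5′ to 3′ on the strand of the gene. They lie at chr11:99024140-99024439 (minus strand, Top2a), chr3:27153805-27154104 (minus strand, Ect2), chr1:191821223-191821522 (plus strand, Nek2) and chr11:117848987-117849286 (plus strand, Birc5).
Top2a: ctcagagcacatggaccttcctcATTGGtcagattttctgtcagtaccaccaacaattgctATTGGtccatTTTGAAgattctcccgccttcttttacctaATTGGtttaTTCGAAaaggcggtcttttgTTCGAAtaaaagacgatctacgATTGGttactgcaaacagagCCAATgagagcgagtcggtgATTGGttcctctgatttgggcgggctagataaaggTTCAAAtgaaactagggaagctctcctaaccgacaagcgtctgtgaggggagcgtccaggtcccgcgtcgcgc
Ect2: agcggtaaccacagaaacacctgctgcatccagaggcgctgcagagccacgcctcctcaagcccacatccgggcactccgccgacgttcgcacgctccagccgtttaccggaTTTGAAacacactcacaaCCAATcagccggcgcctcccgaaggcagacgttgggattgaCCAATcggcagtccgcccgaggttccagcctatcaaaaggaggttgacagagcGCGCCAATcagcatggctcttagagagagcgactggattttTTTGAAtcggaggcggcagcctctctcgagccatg
Nek2: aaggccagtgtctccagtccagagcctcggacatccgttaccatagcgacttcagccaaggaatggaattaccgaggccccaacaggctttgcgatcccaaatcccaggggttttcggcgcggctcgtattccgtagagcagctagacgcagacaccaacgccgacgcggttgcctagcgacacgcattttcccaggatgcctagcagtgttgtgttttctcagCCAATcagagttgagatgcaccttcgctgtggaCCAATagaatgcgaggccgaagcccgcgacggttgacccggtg
Birc5: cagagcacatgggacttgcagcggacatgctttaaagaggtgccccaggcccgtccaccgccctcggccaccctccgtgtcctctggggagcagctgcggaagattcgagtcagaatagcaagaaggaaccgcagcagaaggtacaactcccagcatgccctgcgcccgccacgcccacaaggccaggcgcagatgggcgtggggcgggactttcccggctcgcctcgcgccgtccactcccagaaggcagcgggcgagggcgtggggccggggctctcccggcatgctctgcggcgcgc
Top2a held 4 CHR matches and 6 CCAAT matches in this window. Ect2 held 2 CHR matches, 3 CCAAT matches and 1 E2F match, the last sharing letters with a CCAAT box. Nek2 held 2 CCAAT matches and no match of the other kinds, and the Birc5 window held none of the 3 motifs. Of the 36 genes with a CHR match, 20 had a higher mean in RANKL-deficient cells (median log2 difference 0.047), and of the 11 without one, 4 did (median −0.11). These medians describe the genes side by side and were not tested.

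Differences in the mitotic programme were small and went in both directions, and the largest were the higher values of Stmn1 and Top2a in RANKL-deficient cells. Of the 59 genes, 31 had a higher and 28 a lower mean in RANKL-deficient cells (52.5% higher, beside 39.5% of all genes). The median log2 difference, RANKL-deficient minus control, was 0.019, beside −0.054 over all genes. No gene of the 59 passed the threshold of 0.05 after Benjamini-Hochberg adjustment over all genes (limma, smallest adjusted p = 0.423), where 1 gene of 19938 (0.00502%) passed. At an unadjusted p under 0.05, 6 genes were higher (10.2%, against 4.25% of all genes) and 1 was lower (1.69%, against 3.9% of all genes). The 6 were Top2a, Ect2, Stmn1, Birc5, Incenp and Mki67, and the lower gene was Nek2. Mitotic genes are commonly co-regulated and are not independent observations, and their share was not tested against the background. In bulk samples, a larger share of dividing cells and more of these transcripts per cell cannot be told apart.

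**Figure D1:**
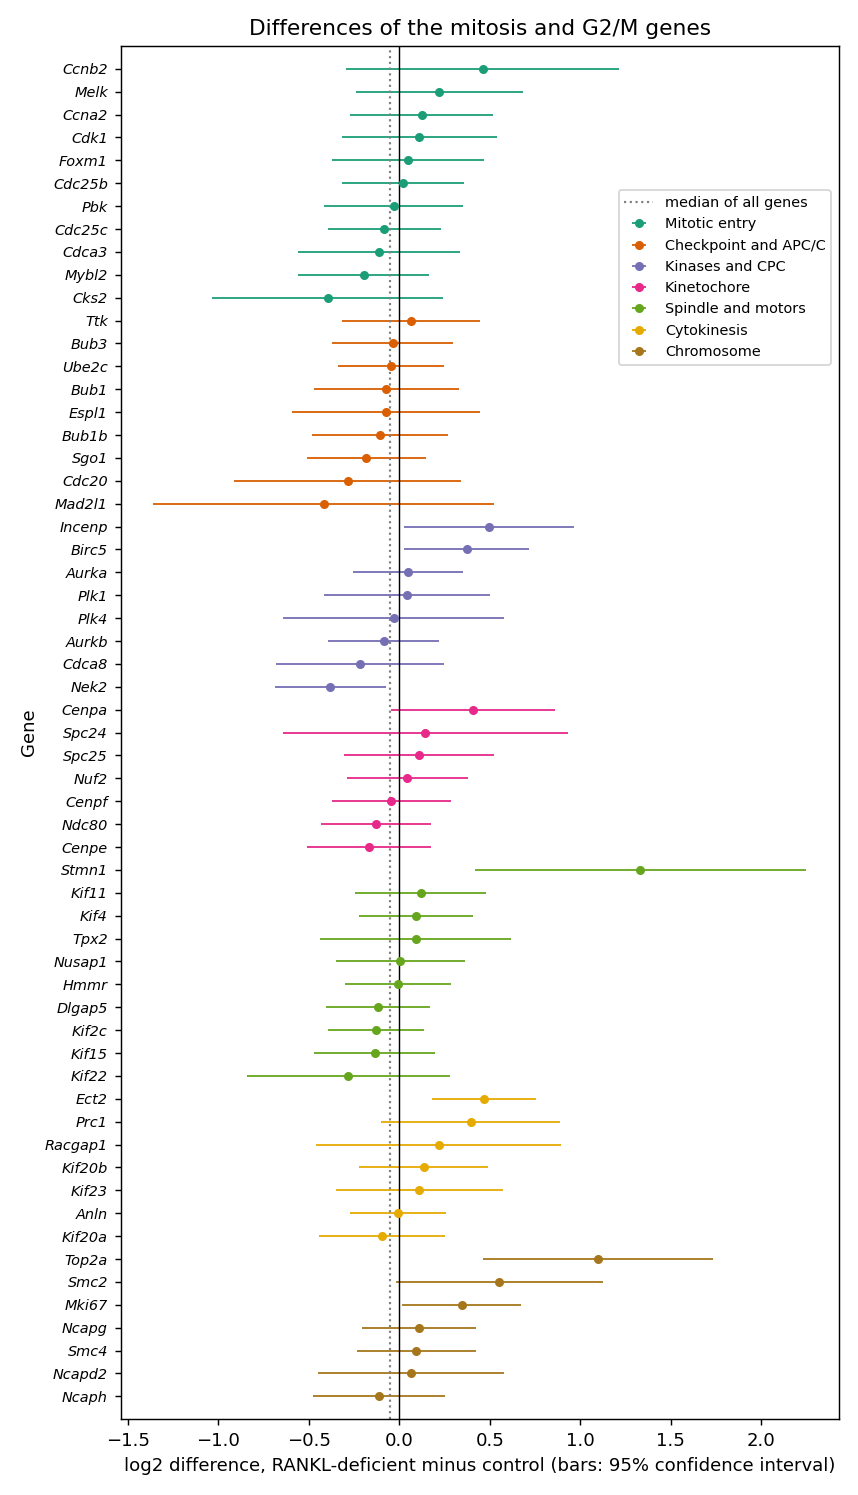
Log2 difference of each of the 59 genes, RANKL-deficient minus control, with the 95% confidence interval of the limma fit (3 arrays per group), grouped and coloured by role; the dotted line is the median of all genes at −0.054. Most points lie close to 0, and Stmn1 (1.33) and Top2a (1.10) lie farthest to the right.

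Most differences were small. The log2 difference was under 0.25 in size for 44 of 59 genes (74.6%), beside 69.5% of all genes. The 95% confidence interval lay within a 2-fold change in either direction for 53 of 59 genes (89.8%, beside 85.4% of all genes). The other 6 were Top2a, Stmn1, Smc2, Ccnb2, Cks2 and Mad2l1. The mean over the arrays lay below the median of all genes for 41 of the 59. Of these 41, 21 were higher (51.2%, beside 24.4% of all genes with a mean that low), and 3 were higher at an unadjusted p under 0.05 (7.32%, beside 0.672%). All 41 had intervals within the 2-fold bounds, as did 95.2% of all such genes. Of the 18 above the median, 10 were higher (55.6%, beside 54.7% of all genes above it). At an unadjusted p under 0.05, 3 of the 18 were higher (16.7%, beside 7.82%). Arrays compress differences near background, no background level was measured here, and a larger change in transcripts near background would not be seen.

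**Figure D2:**
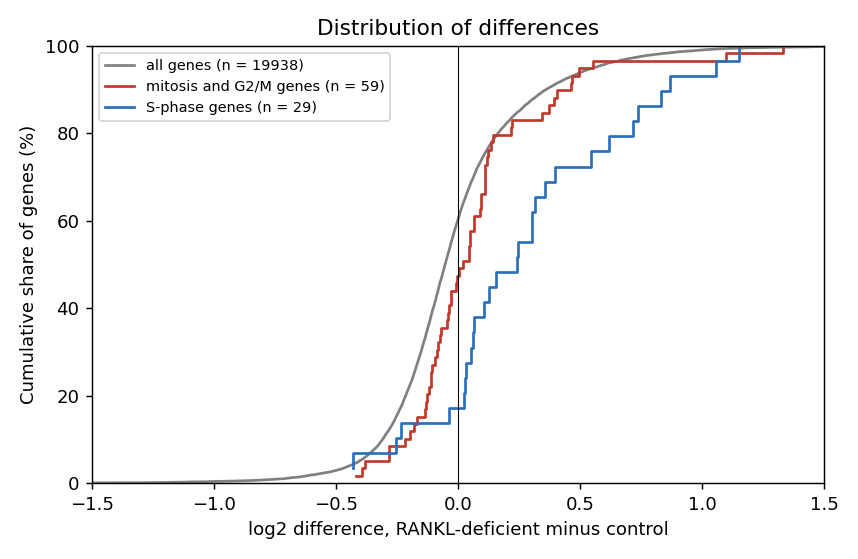
Cumulative share of genes (%) against the log2 difference, RANKL-deficient minus control, for all 19938 genes, the 59 mitosis and G2/M genes and 29 S-phase genes. The mitotic curve runs close to that of all genes (medians 0.019 and −0.054), and the S-phase curve lies to the right (median 0.24).

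Among the genes of chromosome structure, Top2a had the smallest p of all 59. It encodes topoisomerase II alpha, which untangles DNA before chromosomes separate. Top2a measured 4.11, 5.10 and 4.69 on control arrays 1 to 3 and 5.48, 6.03 and 5.68 on RANKL-deficient arrays 1 to 3. The groups did not overlap, and control array 1 was the lowest. The group means were 4.63 ± 0.50 for control and 5.73 ± 0.28 for RANKL-deficient cells (SD, n = 3 each). They were 2.14-fold apart (log2 difference 1.10, SE 0.27, limma adjusted p = 0.423). Leaving out 1 array moved the log2 difference between 0.84 (without control array 1) and 1.33 (without control array 2). Another Top2a probe set, low on the scale, measured 1.91 to 2.67 in control against 3.49, 2.70 and 5.31 on RANKL-deficient arrays 1 to 3. It gave 1.43 (SE 0.67, limma unadjusted p = 0.077) in a fit over all probe sets. The groups again did not overlap, by a small margin, and RANKL-deficient array 3 stood high.

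Mki67, which encodes the proliferation marker Ki-67 that coats mitotic chromosomes, measured 4.32, 4.37 and 4.02 in control against 4.59, 4.65 and 4.52 in RANKL-deficient cells. All RANKL-deficient arrays lay above all control arrays, by a small margin. The difference was 0.35 (SE 0.14, limma adjusted p = 0.603), or 1.27-fold. Without 1 array it lay between 0.24 (without control array 3) and 0.41 (without control array 2). Smc2, a core ATPase of condensin, measured 5.38, 6.04 and 6.31 in control against 6.42, 6.35 and 6.62 in RANKL-deficient cells. Control array 1 stood low for this gene, and the difference of 0.55 (SE 0.24) went to 0.29 without it. The other condensin genes, Smc4, Ncapg, Ncapd2 and Ncaph, had smaller differences, between −0.11 and 0.11. In all, 6 of the 7 chromosome genes had a higher mean (85.7%, beside 39.5% of all genes), 5 of 7 after quantile normalization or cyclic loess.

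**Figure D3:**
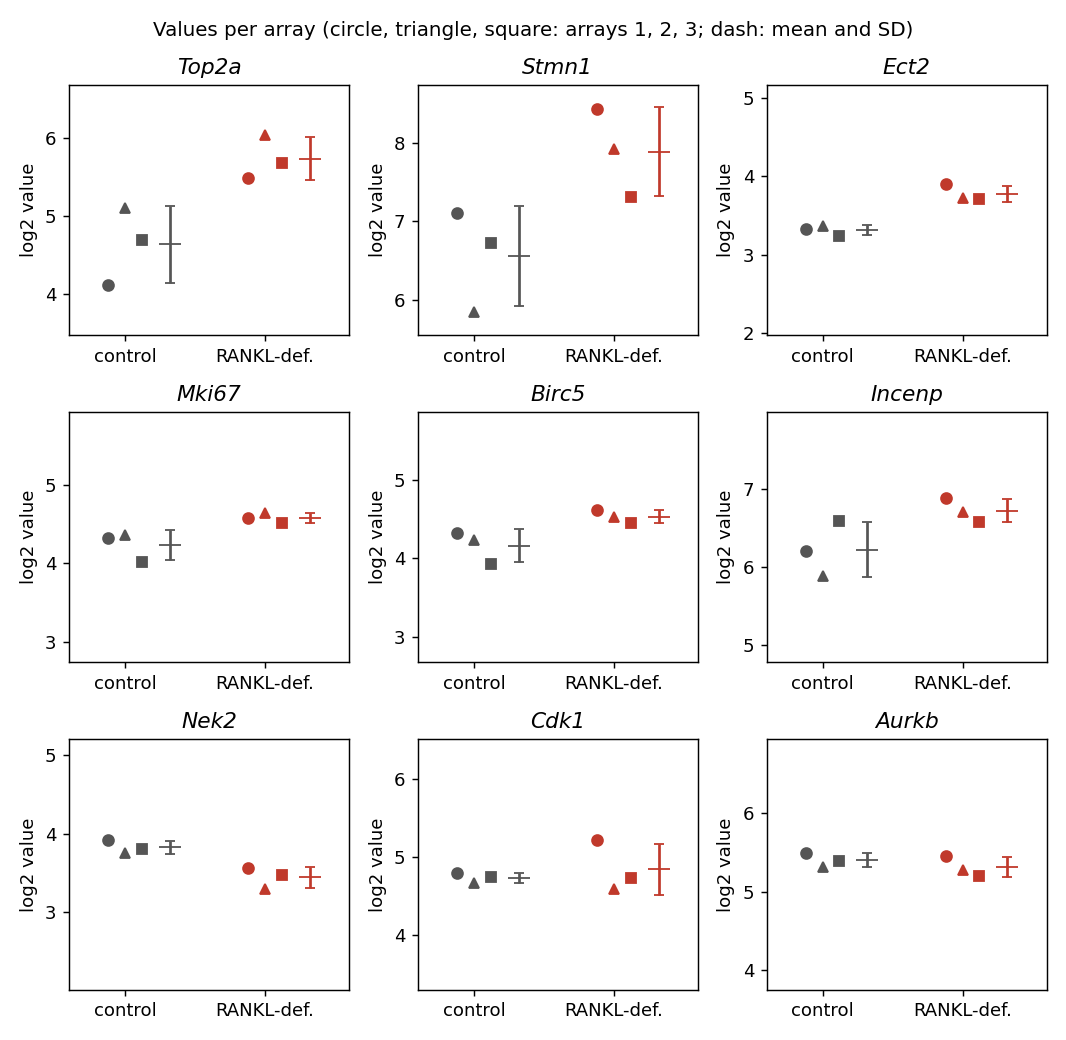
Log2 value on each array for 9 genes, with circles, triangles and squares for arrays 1, 2 and 3 and a dash with a bar for mean and SD (n = 3); each panel spans the same number of log2 units. Top2a, Stmn1, Ect2, Mki67 and Birc5 have all RANKL-deficient arrays above all control arrays, Nek2 has all below, and Incenp, Cdk1 and Aurkb overlap.

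Among the genes of the spindle, Stmn1 had the largest difference of the 59. It encodes stathmin, a protein that sequesters tubulin and is switched off by phosphorylation in mitosis. Stmn1 measured 7.10, 5.84 and 6.72 on control arrays 1 to 3 and 8.44, 7.92 and 7.31 on RANKL-deficient arrays 1 to 3. The lowest RANKL-deficient array lay just above the highest control array, and control array 2 was the lowest. The means of 6.56 ± 0.64 and 7.89 ± 0.57 (SD, n = 3 each) were 2.52-fold apart. This was a log2 difference of 1.33 (SE 0.39, limma adjusted p = 0.507). Without 1 array the log2 difference lay between 0.98 (without control array 2) and 1.62 (without RANKL-deficient array 3). Its other probe set gave 1.36 (SE 0.41) in the fit over all probe sets.

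The other 9 spindle genes had differences between −0.28 and 0.12. Kif22, a chromosome-arm motor, had a mean of 4.78 ± 0.42 in control against 4.50 ± 0.24 in RANKL-deficient cells, which differed by −0.28 (SE 0.24). The Kif22 difference was −0.068 without control array 2, −0.17 without RANKL-deficient array 2 and −0.49 without control array 3. Kif2c, which depolymerises microtubules at the centromere, measured 3.64 to 3.76 on the RANKL-deficient arrays and 3.81 to 3.85 on the control arrays, a difference of −0.13 (SE 0.11). Dlgap5, a microtubule-associated protein gene, differed by −0.12 (SE 0.12). The kinesin genes Kif11, Kif15 and Kif4, with Tpx2, which activates Aurora A, Nusap1 and Hmmr, lay between −0.14 and 0.12. The 10 spindle genes were split evenly, 5 higher and 5 lower.

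In the group of central spindle and cytokinesis genes, Ect2 had the largest difference. Ect2 encodes the exchange factor that activates RhoA at the cleavage furrow. It measured 3.32, 3.37 and 3.24 in control against 3.90, 3.72 and 3.71 in RANKL-deficient cells. The groups did not overlap. The difference of 0.47 (SE 0.12, limma adjusted p = 0.436), or 1.38-fold, stayed between 0.41 and 0.50 when any 1 array was left out. These values lie low on the scale of the arrays, where arrays compress folds. Prc1, the bundler of the central spindle, differed by 0.39 (SE 0.21) with overlapping groups, and by 0.26 without control array 3. Kif20b, a kinesin of late cytokinesis, differed by 0.14 (SE 0.15), and by 0.041 without RANKL-deficient array 2. Racgap1, the centralspindlin subunit that binds Ect2, the kinesin genes Kif23 and Kif20a, and the scaffold gene Anln lay between −0.095 and 0.22. Of the 7 genes, 5 were higher (71.4%, beside 39.5% of all genes), with a median of 0.14. All 7 were higher after cyclic loess, and 3 were higher without RANKL-deficient array 2, with a median of −0.019.

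The mitotic kinases and the chromosomal passenger complex gave both higher and lower means, 4 of each. The passenger complex holds Aurora B with Incenp, survivin (Birc5) and borealin (Cdca8), and corrects faulty attachments at the centromere. Birc5 measured 4.32, 4.24 and 3.92 in control against 4.62, 4.53 and 4.46 in RANKL-deficient cells, without overlap. Its difference was 0.37 (SE 0.15, limma adjusted p = 0.603), and lay between 0.25 (without control array 3) and 0.45 (without control array 1) without 1 array. The scaffold gene Incenp measured 6.21, 5.88 and 6.58 in control against 6.88, 6.70 and 6.58 in RANKL-deficient cells, and control array 3 lay just above RANKL-deficient array 3. Its difference was 0.50 (SE 0.20, limma adjusted p = 0.603), which was 0.32 without control array 2 and 0.14 without control arrays 1 and 2 together.

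The catalytic subunit Aurkb measured 5.49, 5.31 and 5.40 in control against 5.46, 5.27 and 5.21 in RANKL-deficient cells. Its groups overlapped, and the difference was −0.086 (95% confidence interval −0.39 to 0.22). Cdca8 differed by −0.22 (SE 0.20), and by −0.041 without RANKL-deficient array 3. The 4 complex members thus gave 2 higher and 2 lower means. Nek2, a kinase that separates centrosomes, was the 1 gene with an unadjusted p under 0.05 in the lower direction. It measured 3.92, 3.75 and 3.80 in control against 3.56, 3.29 and 3.47 in RANKL-deficient cells. All RANKL-deficient arrays lay below all control arrays, with a difference of −0.38 (SE 0.13, limma adjusted p = 0.567). Plk1, the master kinase of mitotic progression, measured 3.90, 3.49 and 3.21 in control against 3.64, 3.44 and 3.65 in RANKL-deficient cells. Its values overlapped fully, with a difference of 0.043 (95% confidence interval −0.41 to 0.50). Aurka, the centrosomal Aurora kinase, and Plk4, which drives centriole duplication, lay between −0.030 and 0.050.

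The genes that drive entry into mitosis showed no common difference. Cdk1 measured 4.80, 4.67 and 4.75 in control against 5.22, 4.60 and 4.73 in RANKL-deficient cells, and RANKL-deficient array 1 was the only one above the control arrays. Its difference of 0.11 (95% confidence interval −0.32 to 0.54) went to −0.073 without that array. Ccnb2, the gene for cyclin B2, measured 5.12, 4.84 and 4.94 in control against 6.20, 4.90 and 5.19 in RANKL-deficient cells, and RANKL-deficient array 1 again stood high. Its difference of 0.46 (SE 0.32) was 0.079 without it. Ccna2, the gene for cyclin A2, had means of 4.59 ± 0.20 and 4.71 ± 0.21 (SD, n = 3 each), with a difference of 0.12 (SE 0.17) that was 0.016 without RANKL-deficient array 2.

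Foxm1 and Mybl2, the transcription factors of the programme, differed by 0.048 (SE 0.18) and −0.20 (SE 0.15), the latter −0.064 without control array 1. The Foxm1 means were 4.20 ± 0.20 and 4.24 ± 0.25 (SD, n = 3 each), with overlapping groups. Cks2, which binds CDK1, was the gene of this group with the largest lower difference, −0.40 (SE 0.27), with probe sets that gave −0.40, −0.47 and −0.50. That difference rested on RANKL-deficient array 3 (6.86, against 7.56 to 7.97 on the rest) and was −0.10 without it. The kinase gene Melk differed by 0.22 (SE 0.20), and by 0.069 without control array 3. The kinase gene Pbk, the phosphatase genes Cdc25b and Cdc25c, which activate CDK1, and Cdca3 lay between −0.11 and 0.019. None of these 11 genes had an unadjusted p under 0.05.

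The next group held genes of the spindle assembly checkpoint, which holds anaphase until chromosomes are attached, with APC/C co-factors and genes of cohesin release. Of its 9 genes, 8 had a lower mean in RANKL-deficient cells (88.9%, beside 60.5% of all genes), with a median of −0.073. A mean below the median of all genes was found for 6 of the 9, and 75.6% of all such genes were lower. No gene of this group had an unadjusted p under 0.05. The count of lower means rested on control array 1 and on the scaling: 6 of 9 were higher without that array (median 0.015), and 4 of 9 after cyclic loess. Control array 1 held the highest of the 6 values for 7 of the 9 genes. Mad2l1, the checkpoint effector that binds Cdc20, measured 5.60, 6.97 and 5.50 in control against 5.52, 5.97 and 5.32 in RANKL-deficient cells. Control array 2 was the highest, and the difference of −0.42 (SE 0.40) became 0.055 without it. Cdc20, the activator of the APC/C, differed by −0.29 (SE 0.27), which was −0.059 without RANKL-deficient array 2 and −0.077 without control array 1. Sgo1 (listed as Sgol1), which protects centromeric cohesion, differed by −0.18 (SE 0.14), and by −0.11 without control array 2 or RANKL-deficient array 2. The checkpoint genes Bub1, Bub1b, Bub3 and Ttk, the APC/C ubiquitin-conjugating enzyme Ube2c and separase (Espl1) lay between −0.11 and 0.067.

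Of the centromere and kinetochore genes, Cenpa had the largest difference. It encodes the histone H3 variant that marks centromeres. Cenpa measured 6.21, 6.23 and 5.74 in control against 6.32, 6.34 and 6.74 in RANKL-deficient cells, without overlap. Its difference was 0.41 (SE 0.19, limma adjusted p = 0.629), and 0.25 without control array 3 or 0.27 without RANKL-deficient array 3. Ndc80, of the complex that binds microtubules, differed by −0.13 (SE 0.13) and the kinetochore motor Cenpe by −0.17 (SE 0.15), which were −0.045 and −0.053 without control array 1. Nuf2, Spc24 and Spc25, of the same complex as Ndc80, and the corona protein Cenpf lay between −0.043 and 0.14.

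**Figure D4:**
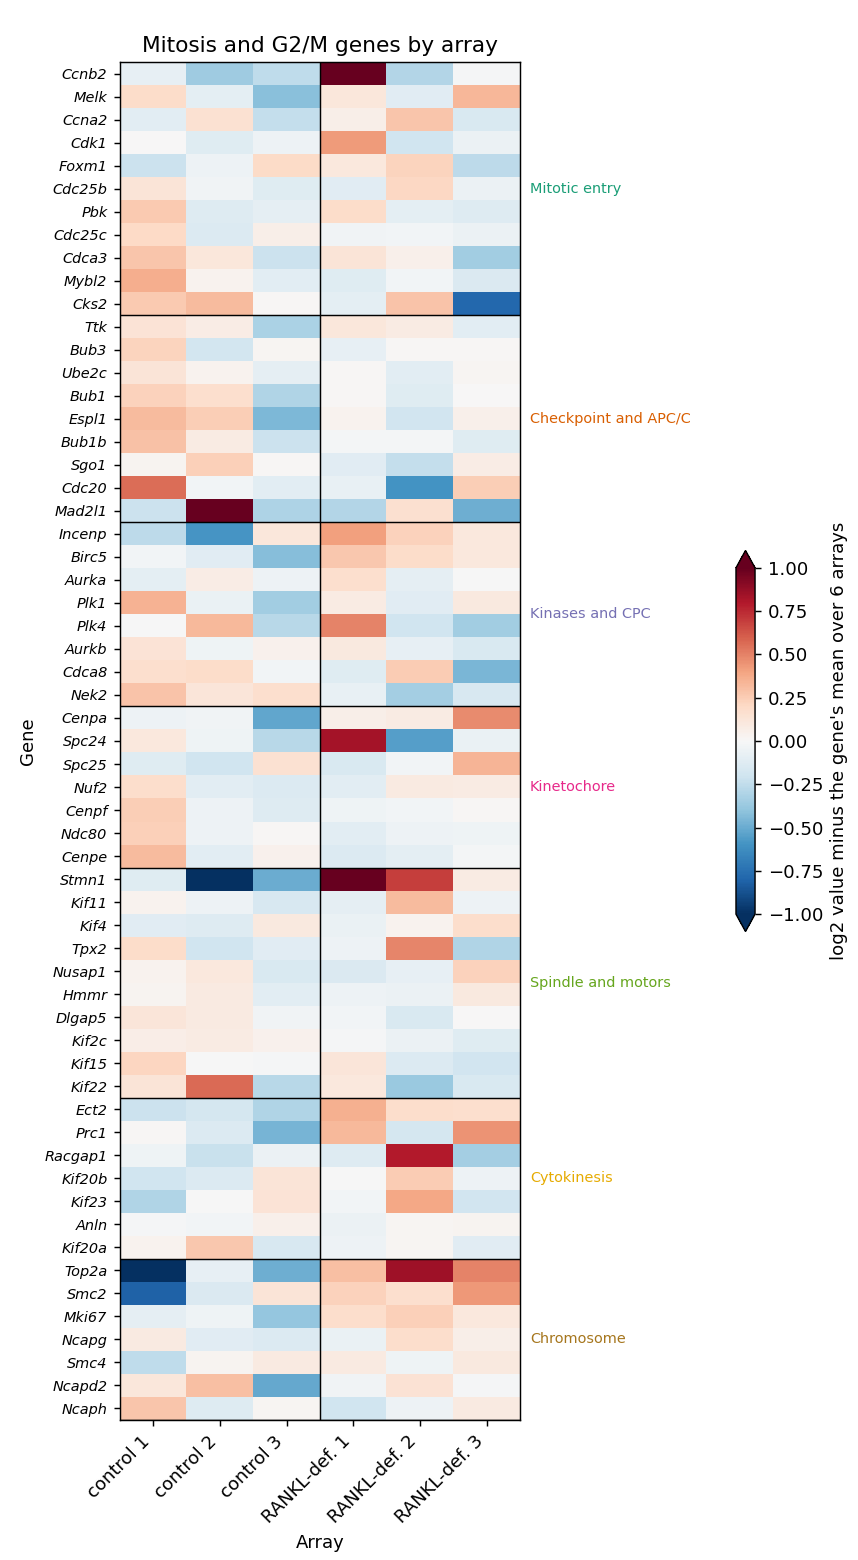
Log2 value minus the mean of the same gene over the 6 arrays, for each of the 59 genes (rows, grouped by role) and each array (columns, the colour scale ending at −1 and 1). Control array 1 holds the highest value for 21 genes and control array 3 the lowest for 21, and the strongest colours in the rows of Top2a and Stmn1 separate the groups.

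Genes whose groups did not overlap numbered 7 in the higher direction (11.9%, against 5.28% of all genes) and 2 in the lower (3.39%, against 9.08% of all genes). The 7 were Top2a, Ect2, Stmn1, Birc5, Mki67, Smc2 and Cenpa, and the 2 were Nek2 and Kif2c. The 7 higher genes belong to 5 role groups, with 3 from chromosome structure. By this choice, the lowest array of each of the 7 had to be a control array. It was control array 1 for Top2a and Smc2, control array 2 for Stmn1, and control array 3 for Ect2, Mki67, Birc5 and Cenpa. Control array 3 held the lowest value for 35.6% of the 59 genes, beside 17.1% of all genes. In the alternative settings that kept at least 2 arrays per group, Top2a and Stmn1 had an unadjusted p under 0.05 in 16 of 16, and Ect2 in 14 of the 14 in which it was tested. The smallest adjusted p that any of the 59 genes reached in any setting was 0.233. Nek2 had an unadjusted p under 0.05 in 11 of 14, Birc5 in 10 of 15, Mki67 in 9 of 15 and Incenp in 6 of 16. All of these genes were named for their p on the same arrays, so these counts are not independent evidence. Settings that changed only the filter or the variance estimate left each difference as it was.

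The arrays themselves differed in ways that touch these counts. Over all genes, values on control array 1 spread least (SD 1.86, against 1.93 to 2.01), and its mean correlation with the rest was the lowest (0.960). Among the 59 genes, control array 1 held the highest value for 21 (35.6%, beside 33.4% of all genes). Control array 3 held the lowest value for 21 (35.6%, beside 17.1% of all genes). The median deviation of the 59 genes from their own means was 0.088 on control array 1, −0.041 on control array 2 and −0.11 on control array 3, and −0.027 to −0.0084 on the RANKL-deficient arrays. Without control array 3, 26 of 59 genes were higher and the median was −0.059. Without control array 1, 37 were higher and the median was 0.061. After cyclic loess, 39 were higher and 20 lower (66.1% higher, beside 49.6% of all genes), with a median of 0.085, so the split between higher and lower genes depended on the scaling.

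**Figure D5:**
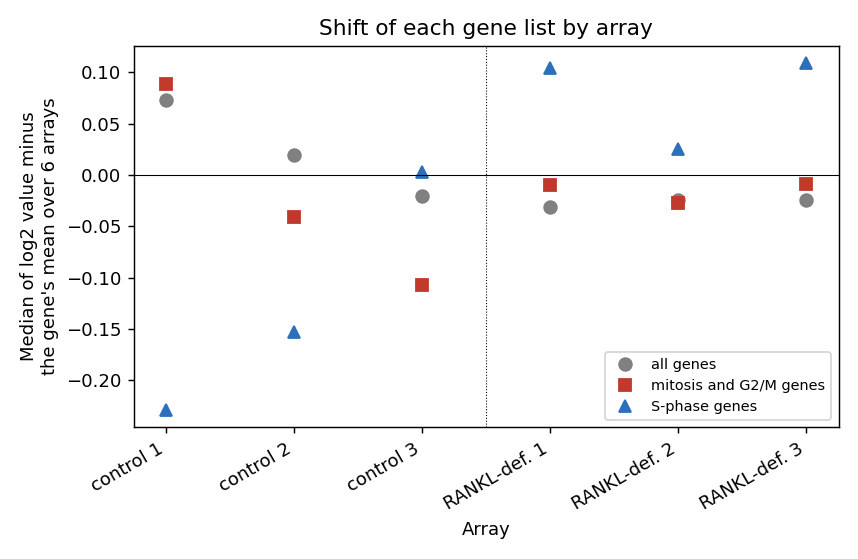
Median over genes of the log2 value minus the gene's own mean over the 6 arrays, for each array and for all genes, the 59 mitosis and G2/M genes and 29 S-phase genes. For the mitotic genes the control arrays run from −0.11 to 0.088 and enclose the RANKL-deficient arrays, and for the S-phase genes all control arrays lie below all RANKL-deficient arrays.

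Of 67 other mitotic genes outside the 60, 43 had a higher mean (64.2%, beside 39.5% of all genes) and the median difference was 0.053. At an unadjusted p under 0.05, 5 were higher (7.46%, beside 4.25%) and 1 was lower (1.49%, beside 3.9%), and 0 passed after adjustment over all genes. Arhgap11a, a RhoA regulator of cytokinesis, had the smallest p, with means of 4.35 ± 0.12 and 5.27 ± 0.32 (SD, n = 3 each) and a difference of 0.91 (SE 0.18, limma adjusted p = 0.363). Ska2 and Kif18a, which act at kinetochore microtubules, differed by 0.66 (SE 0.22) and 0.56 (SE 0.19).

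S-phase genes, which precede mitosis in the cycle, had a larger median difference. Of 29 measured, 24 had a higher mean (82.8%, beside 39.5% of all genes), with a median of 0.24. Their expression was mostly high: 22 of the 29 exceeded the median gene. Of these 22, 20 were higher (90.9%, beside 54.7% of all genes at such levels). Their median was 0.20, beside 0.058 for the 18 mitotic genes at such levels. At an unadjusted p under 0.05, 8 of the 29 were higher (27.6%, beside 4.25%) and 1 was lower (3.45%, beside 3.9%). Of all genes more highly expressed than the median gene, 7.82% were higher at such a p. Mcm4 differed by 0.83, the chromatin factor Uhrf1 by 0.62 and Mcm3 by 0.87, and none passed after adjustment. After quantile normalization 19 of 29 were higher (median 0.21), and without control arrays 1 and 2 the median was 0.15. The lists were set side by side, and the difference between them was not tested.

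Of 11 markers of ILC3s and related lymphoid tissue inducer cells, 6 had a higher mean (4 after quantile normalization). The receptor gene Il7r measured 12.23 to 12.32 over the 6 arrays, Kit 10.75 to 10.93, Id2 11.29 to 11.63 and Ccr6 8.59 to 9.80. Among these markers, chosen here after their values were seen, Cxcr5 differed by 0.85 (SE 0.18, limma adjusted p = 0.377) and Lta by 0.36 (SE 0.17), both without overlap, and Ltb by −0.42 (SE 0.19). Tnfsf11 itself measured 8.76, 8.41 and 8.25 in control against 8.36, 8.65 and 8.52 in RANKL-deficient cells. Where its probes lie against the deleted part is not stated, and its level is no check of the labels. For markers of other cells that the sort could hold, the counts of higher means stand beside 39.5% of all genes. That share was 24.4% for genes with a mean below the median of all genes and 54.7% for those above it. The mean log2 level of 11 epithelial markers was 5.39 to 5.44 in control against 4.91 to 5.52 in RANKL-deficient cells, with 2 of 11 higher. For 10 T cell markers it was 4.55 to 4.93 and 4.43 to 4.67, with 3 of 10 higher. The T cell count was 7 of 10 after median centring, quantile normalization or cyclic loess, and without RANKL-deficient array 2. Cd3g differed by −1.91 (limma adjusted p = 0.408) and Cd3e by −0.70 (SE 0.31). Trat1 (0.28) and Cd3d (0.26) went the other way, and the rest of the T cell markers lay between −0.18 and 0.0083. For 9 B cell markers the mean log2 level was 5.08 to 5.15 and 5.08 to 5.11, with 4 of 9 higher. For 11 myeloid markers it was 4.88 to 4.93 and 4.45 to 4.94, with 4 of 11 higher. For 10 stromal and endothelial markers it was 5.68 to 5.73 and 5.39 to 5.52, with 1 of 10 higher, and for 6 mast cell markers 3.48 to 3.77 and 3.45 to 3.52, with 0 of 6 higher. For 8 markers of natural killer cells and ILC1s it was 4.29 to 4.69 and 4.18 to 4.40, with 2 of 8 higher, and for 5 ILC2 markers 5.51 to 5.70 and 5.32 to 5.65, with 1 of 5 higher. The part of such cells in the mitotic values was not tested.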

How the data were processed

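Per the submitters' processing notes, the deposited log2 values came from RMA, run in Affymetrix Expression Console. They cover 35556 probe sets on 6 arrays. No version or genome build is given in the sources used here. RNA was amplified before labelling, per the labels' protocols. The arrays' medians over all probe sets ran from 4.87 to 4.95. RMA equalises arrays, so a shift of all genes would not be seen, and the number of arrays limits the precision.

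Probe sets with 1 symbol (21789; 1621 had several and 12146 none) were named through the platform annotation, and 19855 of 19938 genes matched RefSeq GRCm38.p6 by Entrez identifier. Genes were compared in limma 3.58.1 (R 4.3.3; lmFit, then eBayes) without a trend, a replicate block or a filter. Tests were two-sided, and Benjamini-Hochberg adjustment covered the 19938 genes. The procedure was tested on simulated data. Alternatives changed the scaling, filter, probe set rule and arrays used. The genes and lists were chosen with earlier results of these data known. By rule, values are given for 11 fixed genes, the 12 with the smallest p in each direction and the 3 with the smallest p in each role group or list, and ranges for the rest. Control arrays 1 and 2 were left out together because their values spread least (SD 1.86 and 1.93, against 1.99 to 2.01). The limma array weights, used in another alternative and lower for arrays that vary more, ordered the arrays otherwise. They were 0.45, 1.43 and 0.60 for control arrays 1, 2 and 3, and 1.32 to 1.47 for the RANKL-deficient arrays.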

Additional observations from a re-analysis of the deposited data

How the results depend on the processing

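No mitotic gene passed the adjusted threshold in any of 17 alternatives. The count over all genes was 1, and 2 with the trend and robust options. It was 0 when all probe sets were tested, with the replicate block and without control arrays 1 and 2, and 0 to 1 when 1 array was left out. The count of mitotic genes higher at an unadjusted p under 0.05 was 6, 2 when only genes above the median were tested (18 of the 59), and 3 to 5 without 1 array. It was 3 without RANKL-deficient array 1 or 3. Smc2 was among the 5 without control array 3, and Prc1 among the 4 without RANKL-deficient array 2, so 3 to 5 of the 6 kept such a p without 1 array. The median difference lay between −0.059 and 0.061 without 1 array, and was 0.11 without control arrays 1 and 2. The same-numbered arrays correlated by −0.023, 0.050 and 0.027 in their deviations, so the replicate block was an alternative only. With it 5 genes were higher at an unadjusted p under 0.05: Smc2 and 4 of the 6. Without control arrays 1 and 2 the control group is control array 3 alone, which held the lowest value for 21 of the 59 genes. That array is assumed to vary like the RANKL-deficient arrays. Of 468 single-gene values, 458 kept their direction. The 10 that turned were Foxm1 (−0.047 without control array 1, −0.052 without RANKL-deficient array 2, −0.17 without control arrays 1 and 2), Mad2l1 (0.055 without control array 2, 0.10 without control arrays 1 and 2), Plk1 (−0.12 without control array 3) and Cdk1 (−0.073 without RANKL-deficient array 1). Without control arrays 1 and 2, Mybl2 (0.0088), Kif22 (0.14) and Kif20b (−0.065) also turned. Without 1 array, Foxm1 reached 0.19, Mad2l1 −0.68, Plk1 0.23 and Cdk1 0.24 at the other end. The cause was not tested.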

Other observations

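Gene groups that surround the mitotic programme also held no gene past the adjusted threshold (limma, over all genes). Counts of higher means stand beside 39.5% of all genes. Among genes expressed more highly than the median gene, that share was 54.7%. The APC/C list held 0 genes under that level and the cohesin list 1. The lists of the next paragraph held 3 (DREAM, MuvB, RB family and E2F) and 2 (arrest and quiescence). Of 16 subunits and partners of the APC/C, 11 had a higher mean (median 0.087). This count depended on the scaling: it was 12 after median centring, 9 after cyclic loess and 8 after quantile normalization (median −0.00064). Without control arrays 1 and 2 the APC/C median was −0.014. Ube2s, which extends ubiquitin chains on APC/C substrates, led with means of 7.80 ± 0.28 for control and 8.61 ± 0.28 for RANKL-deficient cells (SD, n = 3 each), without overlap. Its difference was 0.81 (SE 0.20, limma adjusted p = 0.423). Anapc2 differed by −0.61 (SE 0.26) and Anapc13 by 0.21. The 11 cohesin genes were divided (5 higher, median −0.014), led by Rad21 (0.26), Mau2 (0.31) and Pds5a (0.19), none with an unadjusted p under 0.05.

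Of 19 genes of the DREAM and MuvB complexes, RB family and E2F factors, 10 had a higher mean (median 0.033). Lin54, the MuvB subunit that contacts the CHR, had means of 7.32 ± 0.086 for control and 6.61 ± 0.26 for RANKL-deficient cells (SD, n = 3 each), without overlap. Its difference was −0.71 (SE 0.16, limma adjusted p = 0.415). Lin52, another MuvB subunit, differed by 0.40 (SE 0.16) and E2f6, a repressor, by −0.78 (SE 0.30). Of 19 arrest and quiescence genes, 12 had a higher mean (median 0.074). Gadd45b, a stress-response gene, had means of 6.53 ± 1.28 for control and 8.54 ± 0.021 for RANKL-deficient cells (SD, n = 3 each; difference 2.01, SE 0.56, limma adjusted p = 0.475). Control array 1 stood low for it, at 5.07, and its relative Gadd45a differed by −0.47 (SE 0.16). Cdkn2b, an inhibitor of CDK4 and CDK6, differed by −0.30 (SE 0.13).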
